A study of Mus musculus with 15 samples.

Results

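A set of 58 genes of the cell cycle was followed across 5 sorted mouse mononuclear phagocyte (MP) subtypes: 28 genes of DNA replication, whose products act around the G1/S transition and in S phase, and 30 genes of mitosis, whose products act in G2 and M phase. They were taken by gene symbol from a fixed list, and all 58 were found among the 38924 genes of the deposited table. The dataset held 15 RNA-seq libraries, 3 for each subtype. Sorted cells of 5 mice were pooled for each library, so that the pool, and not the mouse, was the replicate. The mice were naïve C57BL/6 females, 6 to 8 weeks of age by the sample labels, with no altered allele and no agent named. The methods text gave a higher upper age. The subtypes were splenic CD8+ DCs (the DC1 lineage in spleen), splenic CD4+ DCs (the DC2 lineage in spleen), CD103+ DCs of the lung-draining LN (DC1), CD11b+ DCs of the lung-draining LN (DC2) and splenic Ly6C+ monocytes. Both LN subtypes were gated as migratory DCs on high MHC class II, and organs were taken from different cohorts of mice, so that organ, gate and cohort cannot be told apart in any comparison of LN with spleen.

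A cell that enters the cycle first loads the MCM helicase onto replication origins, then copies its DNA with a set of polymerases that need newly made nucleotides, and rebuilds chromatin behind the fork. Many of the genes involved are switched on late in G1 by E2F transcription factors. After S phase, a later set of genes for cyclin B, the mitotic kinases, the spindle and the kinetochore is switched on, and promoters of this set often carry a cell cycle genes homology region (CHR) together with CCAAT boxes. Resident DCs of the spleen are known to divide in the tissue at a low rate, whereas migratory DCs in LN have matured on their way from the lung, and Ly6C+ monocytes are made by dividing progenitors in the bone marrow.

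The letters of the promoters differed between the sets. RefSeq promoter windows (GRCm38.p6, from 250 bases before to 50 bases after a start) were found for 24 replication genes and 26 mitotic genes and were searched on both strands. The E2F letters (TTTCCCGC, TTTCGCGC, TTTGCCGC or TTTGGCGC) were in 10 of 29 replication windows (34.5%) and 2 of 27 mitotic windows (7.4%), and in 2.3% of all 32851 windows. The CHR letters (TTTGAA or TTCGAA) were in 4 of 29 replication windows (13.8%) and 22 of 27 mitotic windows (81.5%), against 19.2% of all windows. CCAAT was in 17 of 29 replication windows (58.6%) and 22 of 27 mitotic windows (81.5%), against 37.4% of all windows. As examples, the 250 bases from 220 before to 30 after the start are shown, 5′ to 3′ on the strand of the gene. They are from the 2 genes of each set with the highest level among those that hold the letters of their set. Being chosen for these letters, the examples cannot show how the sets differ. Capitals mark the E2F letters in Mcm6 and Mcm5 and the CHR letters in Ccnb2 and Kif23. Matches that overlap on opposite strands form a longer capital run.
Mcm6 (chr1:128359676-128359925, minus strand): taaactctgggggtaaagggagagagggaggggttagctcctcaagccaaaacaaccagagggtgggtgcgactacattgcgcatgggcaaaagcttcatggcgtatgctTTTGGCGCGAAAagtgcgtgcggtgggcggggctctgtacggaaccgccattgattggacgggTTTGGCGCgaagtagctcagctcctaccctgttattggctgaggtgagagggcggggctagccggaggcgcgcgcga
Mcm5 (chr8:75109289-75109538, plus strand): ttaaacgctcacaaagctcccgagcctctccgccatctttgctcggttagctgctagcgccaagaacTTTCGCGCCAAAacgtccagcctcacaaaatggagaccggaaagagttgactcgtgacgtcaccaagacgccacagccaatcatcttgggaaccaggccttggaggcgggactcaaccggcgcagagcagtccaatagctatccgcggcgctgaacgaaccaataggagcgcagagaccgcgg
Ccnb2 (chr9:70421525-70421774, minus strand): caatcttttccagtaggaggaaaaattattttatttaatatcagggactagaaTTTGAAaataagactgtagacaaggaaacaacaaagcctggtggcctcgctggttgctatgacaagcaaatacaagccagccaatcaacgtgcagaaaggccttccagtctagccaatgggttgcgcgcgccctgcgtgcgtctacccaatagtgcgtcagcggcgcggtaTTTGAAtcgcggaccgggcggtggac
Kif23 (chr9:61946770-61947019, minus strand): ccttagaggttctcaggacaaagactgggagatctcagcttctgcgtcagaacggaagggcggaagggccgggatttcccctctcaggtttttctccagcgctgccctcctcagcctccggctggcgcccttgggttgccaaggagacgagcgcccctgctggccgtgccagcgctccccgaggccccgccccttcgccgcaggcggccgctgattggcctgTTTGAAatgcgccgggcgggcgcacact

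Library totals ranged from 4531243 to 10233914 counts, and no pair of libraries of one subtype was alike within sampling noise. The markers that define each sorted subtype were highest in the subtypes they were listed for, apart from the DC2 list, which was also high in monocytes. The summed level of 3 migratory DC markers was 5577 to 12709 CPM (counts scaled to the library size) in LN DCs and 136 to 349 in splenic DCs, and that of 5 monocyte markers was 5373 to 5922 in monocytes and at most 679 elsewhere. In spleen, 7 DC1 markers summed to 3748 to 5871 CPM in CD8+ DCs and 131 to 160 in CD4+ DCs, and in LN to 812 to 1142 in CD103+ DCs and 301 to 452 in CD11b+ DCs. For 5 DC2 markers the sums were 1571 to 2660 CPM in splenic CD4+ DCs and 792 to 880 in LN CD11b+ DCs, but also 2282 to 2599 in monocytes, against at most 176 in both DC1 subtypes. The summed level of 5 B cell genes was 218 CPM in replicate 1 of LN CD103+ DCs, against 15.3 and 20 in the other libraries of that subtype. It was 44.0 to 78.5 in LN CD11b+ DCs, 29.8 to 87.9 in splenic DCs and 24.2 to 29.3 in monocytes. Pax5 was the only gene of this list at 0 in all 6 splenic DC libraries. The 5 T cell genes summed to 55.6 to 114 CPM in LN DCs and 0.944 to 5.5 in splenic DCs. The sums of 6 erythroid genes were 28.7 to 238 in splenic DCs and 1.82 to 58.5 in LN DCs. Those of 7 neutrophil granule genes were 66.6 to 111 in monocytes and at most 0.916 elsewhere. Other lists also moved with organ: 3 general DC markers summed to 18625 to 22894 CPM in splenic CD8+ DCs and 2773 to 4811 in LN CD103+ DCs, and to 12459 to 22147 in splenic CD4+ DCs and 5843 to 10129 in LN CD11b+ DCs. The 5 macrophage genes summed to 638 to 947 CPM in splenic CD4+ DCs and 209 to 382 in LN CD11b+ DCs, and 4 plasma cell genes to 1.03 to 21.9 in splenic DCs and 42 to 76.5 in LN DCs. The 5 NK cell genes summed to 79.5 to 118 CPM in splenic CD8+ DCs and 46.7 to 56.8 in LN CD103+ DCs, and 4 plasmacytoid DC genes to 161 to 267 and 95.5 to 112. The part of these cells in the differences between members was not tested.

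All 58 members passed the filter on low counts (more than 1 CPM in at least 3 libraries), which left 14456 genes for testing. This did not rest on splenic DCs alone, since 27 replication genes and 30 mitotic genes would have passed without those libraries, all but Orc1. More than 1 CPM was found in all 15 libraries for 23 of 28 replication genes and 15 of 30 mitotic genes. In the test for any difference among the 5 subtypes (edgeR's quasi-likelihood F-test, Benjamini-Hochberg adjusted p under 0.05), 28 of 28 replication genes and 30 of 30 mitotic genes were called, where 73.5% of all genes tested were called.

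Both sets were highest in splenic DCs and lowest in monocytes. The mean level was highest in splenic CD8+ DCs for 12 replication genes and 11 mitotic genes, in splenic CD4+ DCs for 14 and 19, and in LN CD103+ DCs for 2 replication genes, Uhrf1 and Tk1. Among all genes tested, CD8+ cells of the spleen held the highest mean for 18.4%, its CD4+ cells for 19.4% and LN CD103+ DCs for 24.1%. No member was highest in LN CD11b+ DCs or in monocytes, although 11.3% and 26.9% of all genes tested were. The lowest mean fell in monocytes for 24 of 28 replication genes and 25 of 30 mitotic genes, against 29.2% of all genes tested. In these bulk pools, fewer cells in cycle and less of each RNA per cell cannot be told apart.

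**Figure D1:**
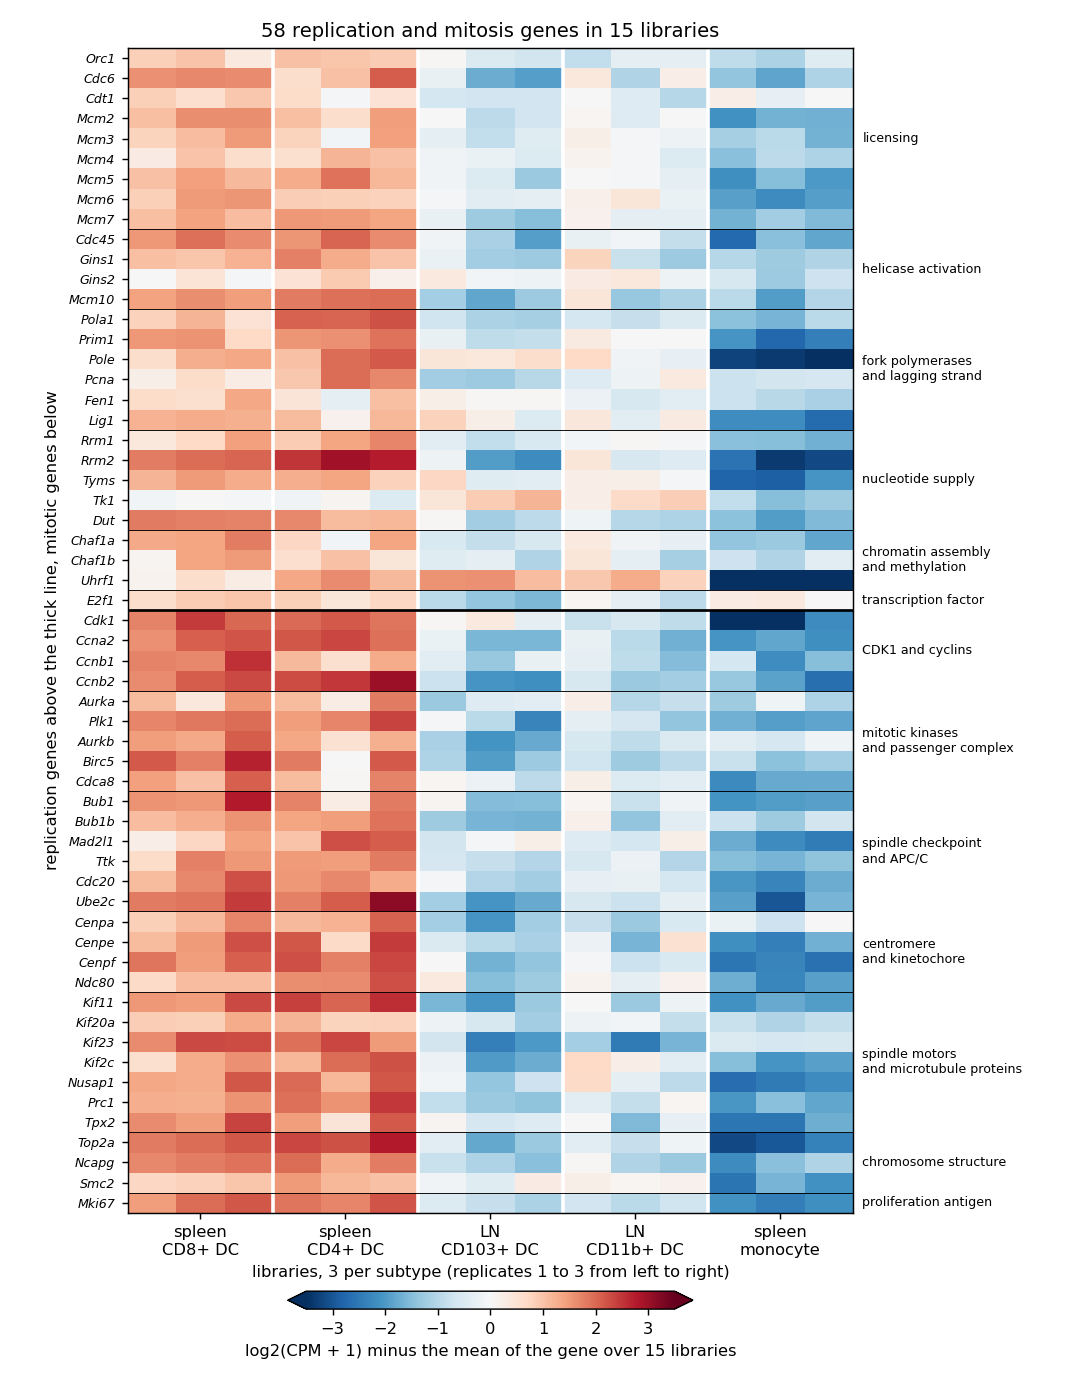
Level of the 58 genes in the 15 libraries. Rows are genes in role groups, columns are libraries in replicate order, and colour is log2(CPM + 1) minus the mean of the gene over all libraries, with values beyond the ends of the scale drawn at its limit; splenic DC columns are red for nearly all genes, LN columns are pale to blue and monocyte columns are mostly the darkest blue, with Tk1 and Uhrf1 red in LN.

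The origin licensing group (Orc1, Cdc6, Cdt1 and Mcm2 to Mcm7) loads the replicative helicase. Its most abundant member per transcript length (TPM), Mcm6, was at 162, 259 and 269 CPM in splenic CD8+ DCs, 167, 164 and 159 in splenic CD4+ DCs, 87.6, 70.1 and 73.2 in LN CD103+ DCs, 102, 121 and 77.1 in LN CD11b+ DCs and 23.6, 18.9 and 23.2 in monocytes. All splenic DC libraries lay above all LN libraries, and all LN libraries lay above all monocyte libraries. Mcm6 was 2.98-fold lower in LN CD103+ DCs than in splenic CD8+ DCs (log2 fold change -1.58, SE 0.21, adjusted p = 7.95e-06) and 1.64-fold lower in LN CD11b+ DCs than in splenic CD4+ DCs (-0.71, SE 0.21, adjusted p = 0.0143). The second call was lost without replicate 3 of LN CD11b+ DCs (adjusted p = 0.0678).

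Cdc45 and the GINS proteins turn the loaded MCM ring into a working helicase. Gins2, the most abundant of this group, was at 38, 52.8 and 36.2 CPM in splenic CD8+ DCs, 54.1, 72.1 and 43.1 in splenic CD4+ DCs, 48.3, 35.3 and 33.0 in LN CD103+ DCs, 46.4, 49.6 and 33.4 in LN CD11b+ DCs and 25.2, 15 and 22.5 in monocytes. The LN and splenic DC libraries overlapped, and only the monocyte libraries stood apart below. Neither LN comparison called Gins2 (log2 fold change -0.12 for DC1, adjusted p = 0.729, and -0.38 for DC2, adjusted p = 0.275). Its exons overlap those of Gse1 on the opposite strand over 67.3% of their length, and counting ignored strand, so that reads of the 2 genes cannot be told apart there.

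Pcna encodes the sliding clamp that holds polymerases on DNA. Its level was 134, 182 and 141 CPM in splenic CD8+ DCs, 227, 459 and 380 in splenic CD4+ DCs, 49.8, 48.2 and 59.0 in LN CD103+ DCs, 85.0, 104 and 149 in LN CD11b+ DCs and 69.2, 73.9 and 76.8 in monocytes. The 3 splenic CD4+ DC libraries were above all others, and LN CD103+ DCs were below monocytes in every library. Pcna has annotated pseudogenes, and only uniquely mapped reads were counted, so reads it shares with them were lost.

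Rrm2, the regulated subunit of ribonucleotide reductase, supplies deoxynucleotides. It was at 159, 178 and 190 CPM in splenic CD8+ DCs, 260, 356 and 312 in splenic CD4+ DCs, 39.6, 11 and 9.11 in LN CD103+ DCs, 61.5, 30.1 and 32.9 in LN CD11b+ DCs and 6.69, 3.5 and 4.21 in monocytes. The groups of splenic DCs, LN DCs and monocytes did not overlap, and replicate 1 was the highest library in both LN subtypes. Rrm2 made up 11.2% and 15.8% of the summed replication TPM in splenic CD8+ and CD4+ DCs, 3.02% and 5.35% in LN CD103+ and CD11b+ DCs, and 1.58% in monocytes.

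Uhrf1, which reads hemimethylated DNA and brings the maintenance methyltransferase to it, departed from this order. It was at 59.3, 83.5 and 64.7 CPM in splenic CD8+ DCs, 140, 172 and 120 in splenic CD4+ DCs, 162, 166 and 115 in LN CD103+ DCs, 105, 135 and 95 in LN CD11b+ DCs and 1.18, 3.01 and 2.37 in monocytes. Every LN CD103+ library was above every splenic CD8+ library, whereas LN CD11b+ and splenic CD4+ libraries overlapped. Uhrf1 made up 2.87% of the summed replication TPM in splenic CD8+ DCs and 15.6% in LN CD103+ DCs.

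Tk1, the thymidine kinase of the nucleotide salvage route, was the other replication gene with its highest mean in LN CD103+ DCs. It was at 46.5, 49.2 and 48.6 CPM in splenic CD8+ DCs, 45.4, 53.2 and 35.1 in splenic CD4+ DCs, 67.1, 92.9 and 114 in LN CD103+ DCs, 57.9, 80.2 and 90.8 in LN CD11b+ DCs and 26.7, 16.9 and 20.3 in monocytes. All LN libraries were above all splenic DC libraries. In both LN subtypes replicate 1, which was the highest library for most members, was the lowest for Tk1.

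E2f1, a transcription factor that switches on S phase genes, was at 27.4, 33.6 and 35.4 CPM in splenic CD8+ DCs, 32.5, 23.9 and 30.1 in splenic CD4+ DCs, 8.79, 6.32 and 5.3 in LN CD103+ DCs, 18.6, 13.8 and 8.84 in LN CD11b+ DCs and 21.8, 22.7 and 17.5 in monocytes. Monocytes lay close below splenic DCs, and LN CD103+ DCs were lowest. E2f1 was thus one of the 4 replication genes whose lowest mean was not in monocytes.

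Among the mitotic genes, Ccnb2 encodes cyclin B2, a partner of CDK1. It was at 52.4, 72.4 and 82.8 CPM in splenic CD8+ DCs, 81.1, 92.7 and 134 in splenic CD4+ DCs, 9.07, 3.04 and 2.82 in LN CD103+ DCs, 10.5, 5.87 and 6.19 in LN CD11b+ DCs and 5.7, 3.6 and 1.71 in monocytes. All splenic DC libraries were far above the rest, and LN and monocyte libraries overlapped. A Ccnb2 pseudogene is annotated, so reads shared with it were not counted.

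Plk1, a kinase of mitotic entry and spindle assembly, was at 26.1, 28.6 and 31.4 CPM in splenic CD8+ DCs, 21.7, 26.3 and 41.8 in splenic CD4+ DCs, 7.12, 3.28 and 0.663 in LN CD103+ DCs, 5.59, 4.55 and 2.21 in LN CD11b+ DCs and 1.57, 1.17 and 1.32 in monocytes. The splenic DC libraries were above the rest, and the LN CD103+ libraries were spread over the whole range of LN CD11b+ DCs and monocytes. Mad2l1, a protein of the spindle checkpoint, was at 20.8, 29.8 and 48.2 CPM in splenic CD8+ DCs, 36.2, 86.8 and 79.4 in splenic CD4+ DCs, 10.9, 16.7 and 20.2 in LN CD103+ DCs, 12.6, 11.1 and 20.3 in LN CD11b+ DCs and 4.52, 3.01 and 2.37 in monocytes. For Mad2l1 the highest LN libraries reached nearly to the lowest splenic CD8+ library, and monocytes were below all DCs.

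Cenpa, the histone H3 variant that marks centromeres, was at 34.1, 42.1 and 63.1 CPM in splenic CD8+ DCs, 41.8, 44.2 and 80.1 in splenic CD4+ DCs, 7.54, 3.63 and 7.46 in LN CD103+ DCs, 10.1, 6.89 and 12.4 in LN CD11b+ DCs and 15.7, 10.9 and 18.4 in monocytes. Monocytes lay between LN CD103+ DCs and splenic DCs without overlap with either. Kif23, a motor of the central spindle needed for cytokinesis, was at 86.4, 135 and 133 CPM in splenic CD8+ DCs, 104, 139 and 76.1 in splenic CD4+ DCs, 16.6, 4.21 and 5.8 in LN CD103+ DCs, 11.1, 3.96 and 7.96 in LN CD11b+ DCs and 18.3, 17.4 and 17.6 in monocytes. For Kif23 every monocyte library was above every LN library, whereas for Cenpa replicate 3 of LN CD11b+ DCs was above replicate 2 of the monocytes.

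Top2a, the topoisomerase that untangles sister chromatids, was at 173, 188 and 221 CPM in splenic CD8+ DCs, 245, 227 and 336 in splenic CD4+ DCs, 36.8, 13.1 and 18.7 in LN CD103+ DCs, 36.5, 27 and 42.9 in LN CD11b+ DCs and 4.52, 5.25 and 8.42 in monocytes. Mki67, which encodes the proliferation antigen Ki-67, was at 147, 210 and 244 CPM in splenic CD8+ DCs, 199, 177 and 248 in splenic CD4+ DCs, 38, 29.8 and 23.9 in LN CD103+ DCs, 33.1, 27 and 32.5 in LN CD11b+ DCs and 11.4, 9.04 and 11.3 in monocytes. For both genes splenic DCs, LN DCs and monocytes formed 3 levels with no overlap between them.

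**Figure D2:**
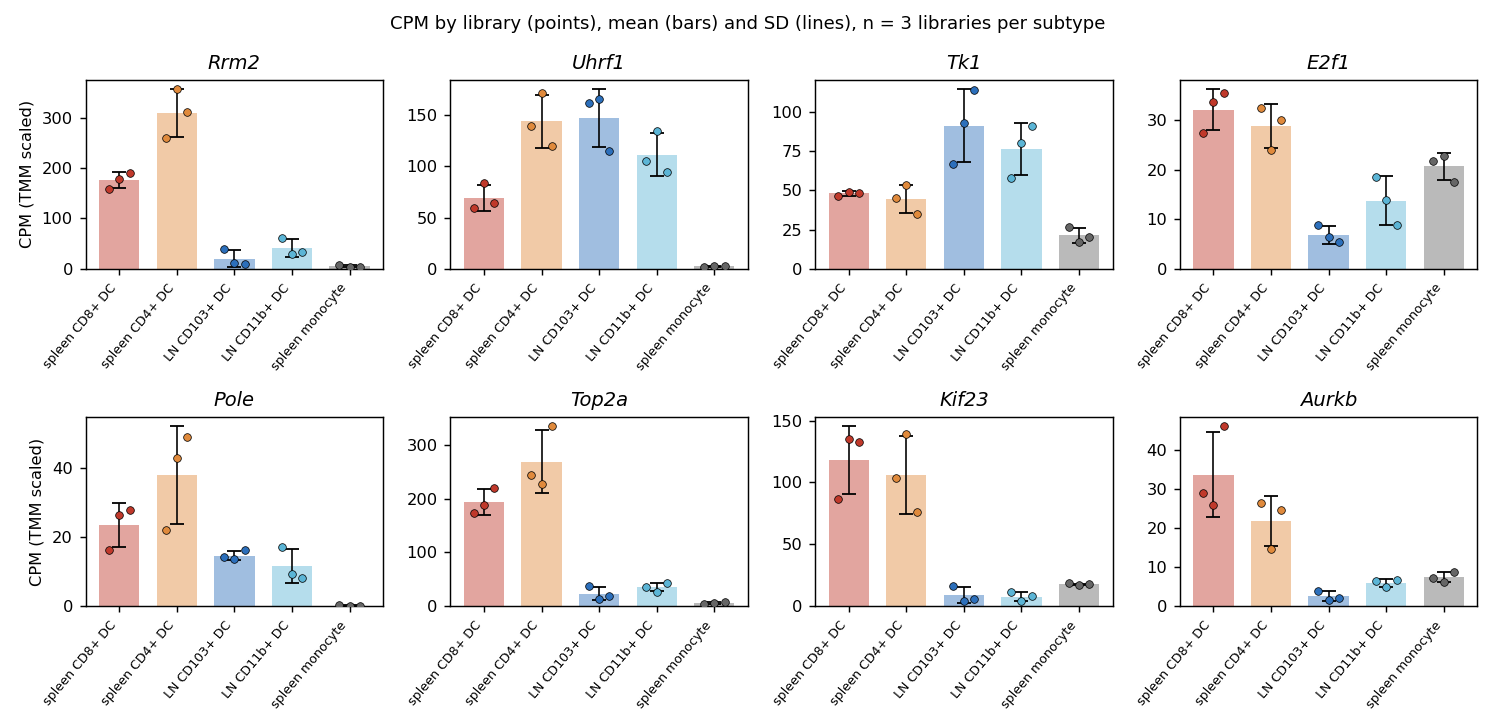
Level of 8 members (CPM, linear scale from 0) in the 5 subtypes. Points are libraries, bars the mean and lines the SD of 3 libraries; Tk1 and Uhrf1 do not fall from spleen to LN in DC1, Pole drops to 0.197 CPM or less in monocytes, and Kif23 in monocytes lies above the LN levels.

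The balance between the sets was taken as the summed TPM of the 30 mitotic genes divided by that of the 28 replication genes. The replication sum was 1189, 1431 and 1458 TPM in the libraries of splenic CD8+ DCs and 588, 459 and 457 TPM in those of LN CD103+ DCs. The mitotic sum was 696, 807 and 1043 TPM in splenic CD8+ DCs and 166, 101 and 111 TPM in LN CD103+ DCs. Both sums were thus lower in the LN in every library, but the mitotic sum by a wider margin: the ratio of the spleen mean to the LN mean was 2.71 for replication and 6.73 for mitosis.

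In DC2 the replication sum was 1568, 1674 and 1997 TPM in splenic CD4+ DCs and 710, 622 and 662 TPM in LN CD11b+ DCs. The mitotic sum was 946, 836 and 1333 TPM in splenic CD4+ DCs and 201, 128 and 176 TPM in LN CD11b+ DCs. The ratio of spleen to LN means was 2.63 for replication and 6.17 for mitosis, a gap like that in DC1. The lineages shared no library, but organ, gate and cohort differed together in both. In monocytes the sums were 294, 276 and 277 TPM for replication and 92.9, 73.0 and 89.5 TPM for mitosis, the lowest of all subtypes for both.

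The balance was 0.585, 0.564 and 0.715 in splenic CD8+ DCs (mean 0.621 ± 0.082, SD, n = 3) and 0.603, 0.499 and 0.668 in splenic CD4+ DCs (0.59 ± 0.0849, n = 3). It was 0.282, 0.22 and 0.244 in LN CD103+ DCs (0.248 ± 0.0315, n = 3), 0.283, 0.206 and 0.265 in LN CD11b+ DCs (0.251 ± 0.0402, n = 3) and 0.316, 0.265 and 0.324 in monocytes (0.301 ± 0.0322, n = 3). Every splenic DC library was above every LN and monocyte library, whereas the 2 splenic DC subtypes overlapped each other, as did the 2 LN subtypes and the monocytes. The balance is given as a description, with no test. Summed CPM in place of TPM gave other values and the same separation, with splenic DCs at 0.586 to 0.881, LN DCs at 0.244 to 0.339 and monocytes at 0.314 to 0.384. Without Pcna and Ccnb2, the most abundant gene of each set, monocytes moved to 0.389 ± 0.0543 (n = 3) and remained below splenic DCs, whose lowest library was then at 0.556. The monocyte libraries, at 0.338 to 0.446, then no longer overlapped the LN libraries, at 0.228 to 0.328. The overlap of monocytes with LN DCs thus depended on these genes.

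**Figure D3:**
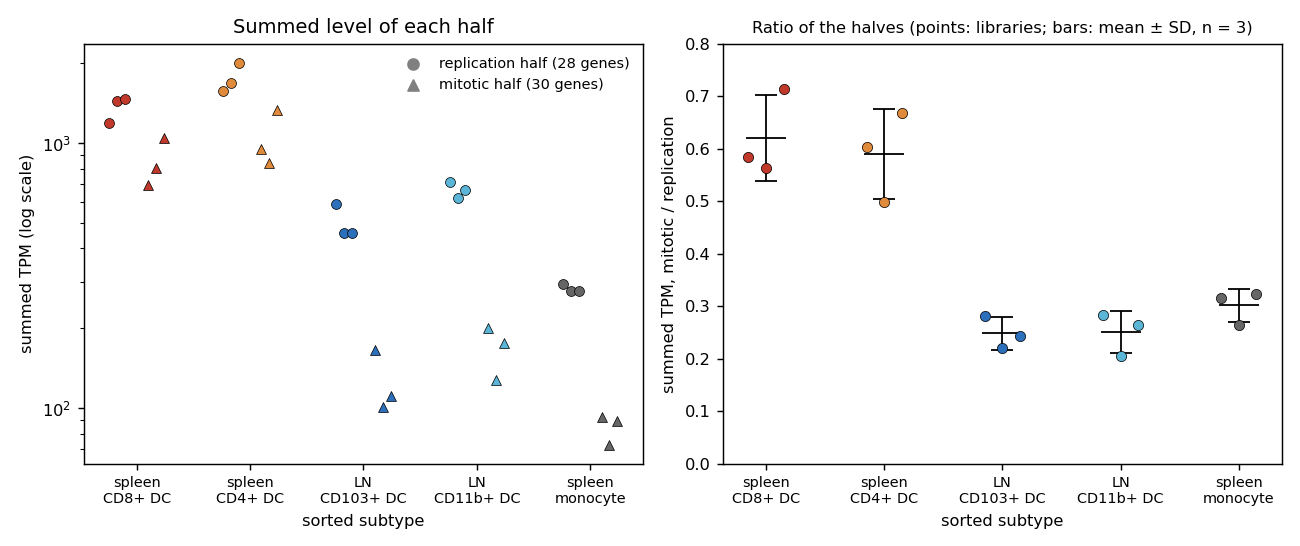
Summed TPM of the replication and mitotic genes (left, log scale) and the balance, mitotic over replication sum (right), in each library. Points are libraries and bars on the right are the mean and SD of 3 libraries; splenic DCs sit at 0.499 to 0.715 and the other subtypes at 0.206 to 0.324.

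The first comparison within the DCs asked whether DC1 in the LN differed from DC1 in the spleen. Of the 28 replication genes, 24 were lower and 2 higher in LN CD103+ DCs than in splenic CD8+ DCs, and of the 30 mitotic genes, 30 were lower and 0 higher, where 21.8% of all genes tested were lower and 23.8% higher (edgeR's quasi-likelihood test, adjusted p under 0.05). The median log2 fold change was -1.74 for replication genes and -2.94 for mitotic genes, against 0.0 for all genes tested. A fall of more than 4-fold, which was not counted over all genes, was found for 11 replication genes and 26 mitotic genes. All 3 LN libraries lay below all 3 splenic libraries for 25 replication genes and 30 mitotic genes, as they did for 27.6% of all genes tested.

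The deepest falls among the replication genes were those of Mcm10, a helicase activator, from 21.2, 25.1 and 22 CPM in splenic CD8+ DCs to 2.65, 1.4 and 2.49 in LN CD103+ DCs (log2 fold change -3.39, SE 0.48, adjusted p = 1.31e-05). Cdc6, a loader of the MCM ring, was at 16.4, 17.5 and 16.9 CPM in spleen and 3.77, 0.702 and 0.497 CPM in LN (-3.34, SE 0.63, adjusted p = 2.58e-04). Replicate 1 was the highest of the LN libraries for both, and without it the log2 fold change of Cdc6 was -4.75 (adjusted p = 2.65e-05). The same library was the highest of its subtype for 23 replication genes and 24 mitotic genes, a count not made over all genes. It also carried the B cell genes described above. Without it, 26 replication genes (24 lower) and 29 mitotic genes were called, where 5989 of 14330 genes tested were.

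Uhrf1 and Tk1 went the other way, by log2 fold changes of 1.09 (SE 0.23, adjusted p = 8.32e-04) and 0.93 (SE 0.24, adjusted p = 0.00359). Pole, the catalytic subunit of the leading strand polymerase, was at 16.3, 26.3 and 27.9 CPM in spleen and 14.1, 13.6 and 16.1 CPM in LN and was not called (-0.69, SE 0.34, adjusted p = 0.103). Together with Gins2, Pole completed the 28 replication genes.

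Among the mitotic genes, Birc5 (survivin), a subunit of the chromosomal passenger complex, was at 20, 15.2 and 30 CPM in splenic CD8+ DCs and 1.26, 0.234 and 0.994 in LN CD103+ DCs (log2 fold change -4.74, SE 0.62, adjusted p = 4.69e-06). Ube2c, the ubiquitin-conjugating enzyme of the anaphase-promoting complex, was at 32.9, 33.7 and 51.4 CPM in spleen and 3.21, 1.29 and 1.82 CPM in LN (-4.22, SE 0.50, adjusted p = 1.49e-06). No LN library came near a splenic library for either gene. By role group, the median log2 fold change ran from -2.76 for the spindle motors and microtubule proteins to -3.10 for CDK1 and its cyclins among the mitotic groups of 3 or more genes. It ran from -1.28 for the fork polymerases to -2.66 for helicase activation among the replication groups of that size. The smallest mitotic falls were those of Smc2, a condensin subunit (-0.91, SE 0.24, adjusted p = 0.00424), and Mad2l1 (-1.05, SE 0.36, adjusted p = 0.0243). The Mad2l1 call was lost without replicate 3 of splenic CD8+ DCs (adjusted p = 0.165) and without replicate 1 or 2 of LN CD103+ DCs (adjusted p = 0.105 and 0.0551).

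In DC2 the same question was asked of LN CD11b+ against splenic CD4+ DCs. Of the replication genes, 22 of 28 were lower and 1 higher, and of the mitotic genes 30 of 30 were lower, where 13.8% of all genes tested were lower and 19.3% higher. The median log2 fold change was -1.32 for replication genes and -2.45 for mitotic genes, against 0.05 for all genes tested. A fall of more than 4-fold, again not counted over all genes, was found for 6 replication genes and 21 mitotic genes. Non-overlapping lower libraries were found for 19 and 29, as for 16.4% of all genes tested.

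Pola1, the catalytic subunit of the primer-making polymerase, was at 54.3, 53.7 and 60.9 CPM in splenic CD4+ DCs and 7.74, 6.6 and 8.4 in LN CD11b+ DCs (log2 fold change -2.89, SE 0.27, adjusted p = 2.05e-07). Rrm2 fell by as much (-2.89, SE 0.42, adjusted p = 2.75e-05). Kif23 had a log2 fold change of -3.78 (SE 0.43, adjusted p = 1.93e-06) and Ccnb2 of -3.74 (SE 0.42, adjusted p = 1.51e-06). For these genes no LN library overlapped a splenic DC library. The chromatin group was the only role group of the comparison with no call: Chaf1a and Chaf1b, subunits of the assembly factor that deposits histones behind the fork, had log2 fold changes of -0.85 (adjusted p = 0.0818) and -0.99 (adjusted p = 0.103), and Uhrf1 of -0.36 (adjusted p = 0.254). Lig1, the ligase that seals lagging strand fragments, was not called either (-0.75, adjusted p = 0.0974). Some of these genes crossed the threshold in other fits: Chaf1b and Lig1 with no filter on low counts (adjusted p = 0.0461 and 0.0475), Chaf1a and Lig1 without replicate 2 of splenic CD4+ DCs (0.0127 and 0.0252), and Chaf1b without replicate 1 of LN CD11b+ DCs (0.0254).

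Tk1 was again higher in the LN (log2 fold change 0.77, SE 0.24, adjusted p = 0.0178). That call was lost without replicate 3 of splenic CD4+ DCs (adjusted p = 0.0713) and without replicate 2 or 3 of LN CD11b+ DCs (adjusted p = 0.0516 and 0.0732). Without the first library of both LN subtypes together, 22 replication genes were still lower and 1 higher, and 30 of 30 mitotic genes were lower. Of the 14206 genes tested in that fit, 1619 were lower and 2293 higher.

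**Figure D4:**
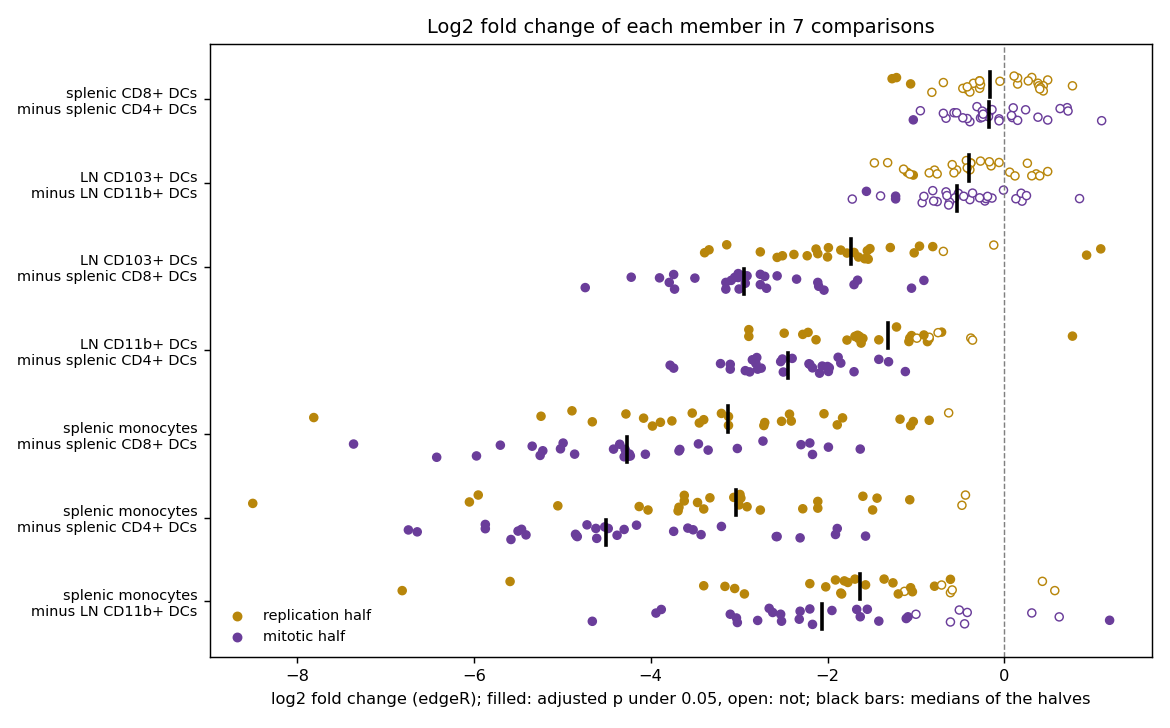
Log2 fold changes of the 28 replication genes and 30 mitotic genes in 7 comparisons (filled points, adjusted p under 0.05; bars, medians of each set). The medians lie at -1.74 and -2.94 for LN against splenic DC1, at -1.32 and -2.45 for DC2, near 0 between the splenic DC subtypes, and at -3.03 to -4.50 for monocytes against splenic DCs.

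The comparisons of LN with spleen in DC1 and DC2 share no library. However, libraries with the same replicate number deviated together across the lineages in each organ, so the comparisons cannot be read as independent repeats. Across the 58 genes, the log2 fold changes in DC1 and in DC2 had a Pearson correlation of 0.79 and a Spearman correlation of 0.74. Within the replication genes the values were 0.74 and 0.61, and within the mitotic genes 0.66 and 0.62. These describe likeness across genes, which are not independent replicates.

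Within a set, genes with and without the letters had similar median changes from spleen to LN. In DC1 the median log2 fold change was -1.67 for 10 replication genes with E2F letters and -2.05 for 14 without them, and -2.93 for 21 mitotic genes with CHR letters and -2.95 for 5 without them. In DC2 the corresponding medians were -1.24 and -1.32 for E2F letters and -2.53 and -2.21 for CHR letters. A match of these letters is a description of the window and not a binding site.

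Whether the LN-spleen difference itself depended on the lineage was tested with an interaction term, the DC1 change minus the DC2 change. In this test 1 of 28 replication genes was called on the side of a higher DC1 change, where 5.17% of all genes tested were, and 1 of 30 mitotic genes on the lower side, where 6.03% were. The replication gene was Uhrf1, which rose in DC1 and was not called in DC2 (interaction 1.45, SE 0.33, adjusted p = 0.00677). The mitotic gene was Aurkb, the kinase of the chromosomal passenger complex (-1.86, SE 0.49, adjusted p = 0.0192). Aurkb was at 28.9, 25.9 and 46.1 CPM in splenic CD8+ DCs, 3.91, 1.52 and 2.15 in LN CD103+ DCs, 26.3, 14.5 and 24.5 in splenic CD4+ DCs and 6.35, 4.84 and 6.63 in LN CD11b+ DCs. Every LN CD103+ library was below every LN CD11b+ library. The Aurkb call was lost without replicate 3 of splenic CD8+ DCs (adjusted p = 0.0581) or replicate 2 of LN CD103+ DCs (adjusted p = 0.068). Without replicate 1 of LN CD103+ DCs 4 replication genes and 3 mitotic genes were called, where 1560 of 14330 genes tested were. The number of mitotic genes called was 2 without replicate 2 of LN CD11b+ DCs, where 1455 of 14353 genes tested were called. That of replication genes was 2 without replicate 1 of splenic CD8+ DCs, where 1465 of 14373 genes tested were called. It was 3 without replicate 3 of splenic CD4+ DCs (1808 of 14357 genes tested) or replicate 3 of LN CD11b+ DCs (1549 of 14291).

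Between the lineages within one organ few genes of either set were called. In spleen, 3 of 28 replication genes were lower and 0 higher in CD8+ than in CD4+ DCs, and 1 of 30 mitotic genes was lower and 0 higher, where 14.4% of all genes tested were lower and 13.1% higher. These shares were at or below the share of all genes, and the medians were -0.16 and -0.17, against 0.0 for all genes. Without replicate 3 of CD4+ DCs the mitotic median was 0.04. Pola1 had a log2 fold change of -1.27 (SE 0.25, adjusted p = 9.43e-04), with 22.4, 29.5 and 18 CPM in CD8+ DCs against the CD4+ values given above. Pcna (-1.22, SE 0.24, adjusted p = 0.00108) and Uhrf1 (-1.06, SE 0.23, adjusted p = 0.0024) were also lower, and for all 3 genes the libraries of the splenic subtypes did not overlap. Mad2l1 (-1.03, SE 0.35, adjusted p = 0.0372) was the mitotic gene. That call was lost without replicate 1 or 2 of CD8+ DCs (adjusted p = 0.149 and 0.0919) and without replicate 2 or 3 of CD4+ DCs (0.152 and 0.0946). Without replicate 3 of CD4+ DCs 5 replication genes were called, where 4000 of 14357 genes tested were. Without replicate 1 of LN CD103+ DCs 2 mitotic genes were called, where 3938 of 14330 genes tested were.

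Replicate 3 was the highest splenic library for most mitotic genes, 27 of 30 in CD8+ DCs and 21 of 30 in CD4+ DCs, but for only 11 of 28 replication genes in each. Replicate 2 was the highest library for 16 replication genes in CD8+ DCs and 10 in CD4+ DCs. Ccnb2, Ube2c and Cenpa showed it in both subtypes, each with its highest value in replicate 3. The highest library was counted for members only, and whether other genes followed the same order was not tested.

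In LN, 2 of 28 replication genes and 3 of 30 mitotic genes were lower in CD103+ than in CD11b+ DCs and 0 were higher, where 7.73% of all genes tested were lower and 5.22% higher. The medians were -0.40 and -0.54, against -0.01 for all genes tested. The change was below 0 for 21 replication genes and 25 mitotic genes, as for 7290 of the 14456 genes tested. Pcna (log2 fold change -1.10, SE 0.25, adjusted p = 0.00512) and E2f1 (-1.03, SE 0.28, adjusted p = 0.0209) were the replication genes. The mitotic genes were Kif11, a motor that pushes spindle poles apart (-1.56, SE 0.40, adjusted p = 0.0128), Aurkb (-1.23, SE 0.38, adjusted p = 0.0386) and Bub1b, a checkpoint protein (-1.23, SE 0.34, adjusted p = 0.0226). With the replicate number as a block, which paired these libraries, 4 replication genes and 5 mitotic genes were called. Of all 14456 genes tested, 2339 were called in that fit, against 1872 in the main fit. The number of calls moved with single libraries, up as well as down. Leaving out replicate 1 of CD103+ DCs raised it to 5 replication and 8 mitotic genes, where 1512 of 14330 genes tested were called. The numbers fell to 1 and 0 without replicate 2 of CD103+ DCs, where 1216 of 14359 genes tested were called. They fell to 1 and 1 without its replicate 3, where 1353 of 14320 were called. Without replicate 1 of CD11b+ DCs the numbers were 1 and 0, where 1459 of 14349 genes tested were called. Calls over all genes thus fell in these fits too. Kif11 was at 2.65, 1.64 and 3.48 CPM in CD103+ DCs and 10.1, 3.52 and 8.84 CPM in CD11b+ DCs, with no overlap but a narrow gap.

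Splenic monocytes were compared with each splenic DC subtype. Against CD8+ DCs, 27 of 28 replication genes and 30 of 30 mitotic genes were lower and 0 higher in monocytes, where 21.7% of all genes tested were lower and 20.4% higher. Against CD4+ DCs, 26 of 28 and 30 of 30 were lower and 0 higher, where 24.2% of all genes tested were lower and 23.8% higher. The medians were -3.12 and -4.26 against CD8+ DCs and -3.03 and -4.50 against CD4+ DCs, with -0.04 and -0.01 for all genes. Both comparisons share the monocyte libraries.

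In edgeR's test the exceptions were E2f1, not called against either DC subtype (log2 fold change -0.63, adjusted p = 0.0623, and -0.48, adjusted p = 0.147), and Cdt1, a licensing factor, not called against CD4+ DCs (-0.44, adjusted p = 0.193). Cdt1 was at 29.8, 25.1 and 32.5 CPM in CD8+ DCs, 26.0, 15.9 and 23.6 in CD4+ DCs and 19.3, 13.1 and 16.2 in monocytes. The monocyte libraries overlapped those of CD4+ DCs. The E2f1 difference from CD8+ DCs lay near the threshold and was called with DESeq2 (adjusted p = 0.0427), with the replicate number as a block (0.0393) and without replicate 1 or 3 of LN CD11b+ DCs (0.0489 and 0.0383).

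Pole and Bub1, a kinase of the spindle checkpoint, had 2 counts each over the 3 monocyte libraries together. The mean Pole level in monocytes was lower by a ratio of 270 than in CD8+ DCs (95% counting interval 74.7 to 2229) and of 435 than in CD4+ DCs (120 to 3593). For Bub1 the ratios were 194 (53.8 to 1604) and 118 (32.8 to 978). The intervals cover counting error only.

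Rrm2 was next among the replication genes, with log2 fold changes of -5.24 against CD8+ DCs (SE 0.49, adjusted p = 6.69e-08) and -6.05 against CD4+ DCs (SE 0.50, adjusted p = 1.81e-08). Cenpf, a kinetochore protein, was at 24.3, 17.9 and 28.5 CPM in CD8+ DCs, 31.7, 22.2 and 34.1 in CD4+ DCs and 0.197, 0.389 and 0.132 in monocytes. Its log2 fold changes of -6.42 (SE 0.61, adjusted p = 9.63e-08) and -6.74 (SE 0.62, adjusted p = 6.50e-08) became -7.07 and -7.38 without replicate 2 of the monocytes. The depth limits such values, since only 16 of 30 mitotic genes and 23 of 28 replication genes exceeded 1 CPM in all 3 monocyte libraries. The smallest mitotic fall against CD8+ DCs was that of Cenpa (-1.63, and -1.89 against CD4+ DCs). Against CD4+ DCs it was that of Aurkb (-1.57, and -2.20 against CD8+ DCs).

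Against LN CD11b+ DCs, a comparison added after the data had been seen, monocytes were lower for 22 of 28 replication genes and 22 of 30 mitotic genes and higher for 0 and 1, where 26.5% of all genes tested were lower and 21.3% higher. The medians were -1.63 and -2.06, against -0.07 for all genes. Uhrf1 had a log2 fold change of -5.59 (SE 0.31, adjusted p = 7.03e-11), and the mean Pole level was lower by a ratio of 133 (95% counting interval 36.7 to 1095). Cenpf had a log2 fold change of -3.94 (SE 0.66, adjusted p = 7.29e-05), which was -4.58 without replicate 2 of the monocytes, and Bub1 was lower by a ratio of 29.8 (8.25 to 246). Kif23 was the mitotic gene that was higher in monocytes (1.19, SE 0.42, adjusted p = 0.0237), but the call was lost without replicate 2 of LN CD11b+ DCs (adjusted p = 0.118) or replicate 1 of the monocytes (adjusted p = 0.0509). Of the mitotic genes, 7 did not pass the test in either direction, Aurka, Aurkb, Birc5, Bub1b, Ccnb1, Cenpa and Kif20a, and 6 replication genes did not, Cdt1, Chaf1b, E2f1, Fen1, Mcm10 and Orc1. Exons of Fen1 and Kif20a overlap genes on the opposite strand over 84.2% and 33.2% of their length, so their reads cannot be fully assigned.

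The composition of each set therefore differed between subtypes as well as its level. In monocytes, Pcna made up 28% of the summed replication TPM, against 10% to 20.7% in the DC subtypes, and E2f1 6.0%, against 0.961% to 1.8%. Cenpa and Kif23 made up 18% and 15.9% of the summed mitotic TPM in monocytes, against 4.48% to 5.61% and 3.09% to 9.77% in the DC subtypes. In LN DCs, Tk1 made up 8.22% (CD103+) and 5.35% (CD11b+) of the replication sum, against 1.65% and 1.23% in splenic CD8+ and CD4+ DCs.

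Other genes of the same pathways that are not members, 66 of replication and 71 of mitosis, of which 66 and 70 passed the filter, were counted beside them. The shares of all genes tested to set against these counts are those given above for each comparison. For any difference among the 5 subtypes 57 and 68 were called. From spleen to LN in DC1, 38 of the other replication genes were lower and 5 higher (median -1.01), and 51 of the other mitotic genes were lower and 2 higher (median -2.10). In DC2, 35 and 53 were lower and 2 and 0 higher (medians -0.85 and -1.89). In both lineages the other mitotic genes thus had the lower median too. Between the splenic lineages 7 and 7 were lower and 2 and 3 higher, where 14.4% of all genes tested were lower and 13.1% higher. Between the LN lineages 5 and 2 were lower and 2 and 1 higher, where 7.73% of all genes tested were lower and 5.22% higher. In monocytes, 49 and 61 were lower than in splenic CD8+ DCs and 3 and 0 higher (medians -1.73 and -3.60), and 52 and 64 were lower than in splenic CD4+ DCs and 4 and 1 higher (medians -1.84 and -3.59). Against LN CD11b+ DCs, 36 and 41 were lower in monocytes and 7 and 6 higher (medians -0.98 and -1.65), and for the interaction 2 and 1 were called on either side.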

How the data were processed

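RNA was measured by poly(A) RNA-seq in 15 libraries of sorted cells. The authors mapped reads to mm10 with STAR 2.4.0j and used featureCounts (Subread 1.5.2) to assign reads with a single mapping position to Ensembl genes, ignoring strand and counting a read for each gene it overlapped; the deposited counts are raw, and the deposited TPM values are these counts per exon length. Totals were 4531243 to 10233914 counts per library, which limits the precision of genes near 1 CPM. The 14456 genes that exceeded 1 CPM in 3 or more libraries entered edgeR 4.0.16 (TMM, quasi-likelihood F-test, 1 mean per subtype over all 15 libraries, Benjamini-Hochberg adjustment over all genes tested, threshold 0.05) in R 4.3.3; the model was tested on simulated data. CPM values use TMM-scaled library sizes, marker sums use CPM, and the sums behind the balance of the sets use TPM. Alternatives were RLE size factors, DESeq2 1.42.0, no filter, edgeR's filterByExpr, limma 3.58.1 on log2(TPM + 1), the replicate number as a block, and leaving out each library. Libraries with the same number deviated together in splenic CD8+ and CD4+ DCs (correlations 0.162, 0.339 and 0.375) and in both LN subtypes (0.222, 0.179 and 0.259). They also did in LN CD11b+ and splenic CD4+ DCs (0.197, 0.243 and 0.266). The number was read as a pairing from the data there, but not for LN CD103+ against splenic CD8+ DCs (0.0374, 0.086 and 0.0689). The main fit did not use this pairing, so its SEs and adjusted p values are unpaired. Only the alternative with the replicate number as a block used it. The 58 members and all lists were chosen with earlier results of these data known. Values in every library are given for the member with the highest mean TPM in each of 13 role groups; in each comparison the 2 replication and 2 mitotic genes with the largest fold change among those called are named, and called genes against the majority of their set. Other members named, among them Aurkb, Smc2, Cdt1, Lig1, Bub1b and Tk1 in every library, were chosen after their values were seen. Separate columns per sequencing run (18) were not used. One marker of the erythroid list is not reported here.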

Additional observations from a re-analysis of the deposited data

Results flagged for a closer look

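The change from spleen to LN differed between DC1 and DC2 for 2 of the 58 members by a direct test of the difference, 1 on each side, where 5.17% of all genes tested were called on the higher side and 6.03% on the lower. Uhrf1 had an interaction of 1.45 on the log2 scale (edgeR's quasi-likelihood test, adjusted p = 0.00677): LN CD103+ DCs were 2.13-fold above splenic CD8+ DCs, whereas LN CD11b+ and splenic CD4+ DCs overlapped. Aurkb had an interaction of -1.86 (adjusted p = 0.0192): it was 13.3-fold lower in LN in DC1 and 3.67-fold lower in DC2. The Aurkb call was lost without replicate 3 of splenic CD8+ DCs (adjusted p = 0.0581) or replicate 2 of LN CD103+ DCs (adjusted p = 0.068). No cause was tested for either gene.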

How the results depend on the processing

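Among the log2 fold changes printed for single genes, 1 changed direction under an alternative: Gins2 in LN CD103+ against splenic CD8+ DCs, not called in either fit, was 0.04 without replicate 2 of splenic CD8+ DCs and ranged from -0.3 to 0.04 on leaving out each library. Among the medians of the sets, that of the mitotic genes between splenic CD8+ and CD4+ DCs did, at 0.04 without replicate 3 of splenic CD4+ DCs, and ranged from -0.37 to 0.04. The counts for LN against spleen and for monocytes against splenic DCs moved by less than 1.5 times under every alternative run; leaving out each library gave 23 to 26 replication and 29 to 30 mitotic genes in DC1 and 16 to 25 and 26 to 30 in DC2. The few calls between lineages did depend on the processing. Between splenic CD8+ and CD4+ DCs, mitotic genes called were 3 with no filter, 0 with limma and 2 without the first library of both LN subtypes. That last alternative was added after the data were seen. Leaving out each library gave 3 to 5 replication and 0 to 2 mitotic genes. Over all genes, 3966 were called in the main fit, 4149 of 23169 with no filter and 3844 with limma. Without the first library of both LN subtypes 3854 of 14206 were called, and leaving out each library gave 2788 to 4075. Between the LN subtypes, replication genes were 6 with no filter, 4 with limma and 4 with the replicate block, with 1 to 5 on leaving out each library. Mitotic genes were 5 with DESeq2, 6 with no filter, 1 with limma and 5 with the replicate block, with 0 to 8. All genes called there were 1872 in the main fit, 2258 with DESeq2, 2299 of 23169 with no filter, 2020 with limma and 2339 with the replicate block. Leaving out each library gave 1216 to 2171. For the interaction, replication genes were 3 with DESeq2, 3 with no filter and 3 with the replicate block, with 1 to 4. Mitotic genes were 2 with no filter, with 0 to 3. Calls over all genes were 1620 in the main fit, 2150 with DESeq2, 2089 of 23169 with no filter and 2152 with the block. They were 1118 to 1808 on leaving out each library. The replicate block moved no other total of members called by over 1.5 times, but 2 mitotic genes in place of 1 were then higher in monocytes than in LN CD11b+ DCs, libraries that the number did not pair. Summed CPM gave a balance of 0.768 and 0.72 in splenic CD8+ and CD4+ DCs, 0.283 and 0.304 in LN CD103+ and CD11b+ DCs and 0.349 in monocytes; without Pcna and Ccnb2 monocytes had 0.389. The cause of these shifts was not tested. Of the values of named genes under the alternatives, 1119 kept their side of the threshold, 35 lost the call and 11 gained one; those gained were of E2f1 in monocytes against splenic CD8+ DCs and of Chaf1a, Chaf1b and Lig1 in DC2. limma on log2(TPM + 1) moved the median of all genes by up to 0.113 and, like the filter, bears most on genes near 1 CPM. Groups of 3 pools limit what could be called: an exact permutation test of 3 against 3 libraries cannot give a p below 0.1.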
